A study of Mus musculus with 31 samples.

Results

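Myb encodes c-Myb, a proto-oncogene transcription factor of immature blood cells and of activated lymphocytes. Its transcript was followed in D10.G4.1 cells, a mouse T helper clone of the Th2 type, after the neuropeptide neuromedin U (NmU, "Neuromedin" in the labels) or phosphate-buffered saline (PBS). All probe sets that the platform annotation pairs with the single symbol Myb were taken, which gave 2 probe sets of 12488 on the array, 12422 of them other than controls, for 1 of 8252 genes so named. Total RNA was measured on 31 arrays. NmU-treated cells at 0.8, 3, 6 and 12 h were set against PBS-treated cells at the same times, with 4 arrays in each of the 8 groups except NmU at 3 h, which had 3. All arrays are of a single clone. The labels give neither the dose of NmU nor the origin of the replicates, and if these were not separate cultures, the p-values below rest on technical spread only. Myb was chosen by its signals on these arrays, which had been seen to be low after NmU at 3 h and higher again later, so its own values are a description with no test.

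c-Myb binds DNA through repeats in its amino-terminal part and recruits the coactivators CBP and p300, which acetylate histones. It is needed for definitive blood cell formation and for several steps of thymocyte development, and it is low in resting mature T cells and higher in cycling ones. The transcript is known to turn over quickly, and its output depends on promoter activity, on a block to elongation in the first intron and on microRNAs that bind the transcript. Its relatives are A-Myb, encoded by Mybl1, and B-Myb, encoded by Mybl2. B-Myb works with the MuvB proteins and Foxm1 on genes of cell division.

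In the RefSeq gene table of assembly GRCm38.p6, Myb lies on the minus strand of chromosome 10, from base 21124930 to base 21160984. The genome build behind the array is not given in the sources used here. The 250 bases before the start of the gene are printed because reported regulators of Myb, described further on, include factor families whose short recognition cores can be looked for there. The capitals mark the match to an E2F core, the site that complexes of E2F factors with the pocket protein Rbl1 recognise.
Myb promoter, chr10:21160985-21161234, minus strand, GRCm38.p6: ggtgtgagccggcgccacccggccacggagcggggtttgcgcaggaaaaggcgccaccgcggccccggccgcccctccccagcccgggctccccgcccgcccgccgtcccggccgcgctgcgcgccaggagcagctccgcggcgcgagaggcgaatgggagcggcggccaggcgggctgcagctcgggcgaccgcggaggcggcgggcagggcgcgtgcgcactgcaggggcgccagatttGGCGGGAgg
The sequence, from RefSeq, has a GC content of 81.2%. It holds 1 match on either strand to the E2F core GGCGGGA, starting 9 bases before the gene's start, and 9.75% of 32851 promoters of the same length hold this core. On either strand it holds 0 matches to the EGR core GCGGGGGCG (in 2.57% of promoters), to the ETS core CCGGAAG (6.91%) or to the Myb recognition core AACNG (74.2%). A match is a run of letters and not a binding site, and the absence of a match concerns only these letters in this window.

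Some arrays stood apart. On replicate 4 of NmU at 6 h, the early response gene Egr2 had a signal of 1705.4, while its 3 companion arrays had 251.9 to 304.4, and Egr1 and Fos were also far higher there. On replicate 4 of PBS at 3 h, Mybl2, Myc and Top2a lay far above the other 3 arrays. On replicate 1 of PBS at 0.8 h, Top2a, Plk1 and Meis1 lay above the other 3 arrays, and its Myb signal, 920.5, was the highest of all. Without replicate 4 of PBS at 3 h, 27 of the 29 genes named here and called at 3 h, Myb and cell type markers aside, were still called, and Egr1 and Mybl2 were not. Without replicate 4 of NmU at 6 h, 12 of 13 called at 6 h were still called, and Bcl2l1 was not. Arrays of a group correlated at 0.951 to 0.982 over 7930 probe sets, and 0 pairs of arrays held identical values. No batch is given in the labels.

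The main Myb probe set, 92644_s_at, was bright on every array. Its signal was lower with NmU than with PBS at 3, 6 and 12 h, and the groups overlapped at 0.8 h. Signals are the deposited linear intensities. At 0.8 h the NmU arrays had Myb signals of 709.9, 785.4, 702.5 and 765.1, against 920.5, 724.5, 764.2 and 743.6 on the PBS arrays. The groups overlapped, and only the first PBS array stood above all NmU arrays. The mean was 741 ± 40.8 with NmU and 788 ± 89.7 with PBS (SD, n = 4 each), and NmU was at 94.0% of PBS. The log2 difference, NmU minus PBS, was -0.08 (standard error, SE, 0.12).

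At 3 h the Myb signal was 258.6, 229.7 and 232.4 with NmU, against 647.3, 904.5, 827.8 and 899.0 with PBS. All 3 NmU arrays lay below all 4 PBS arrays, with a gap of 388.7 between the groups. The mean was 240.2 ± 15.96 with NmU (SD, n = 3) and 819.65 ± 120.1 with PBS (SD, n = 4), which puts NmU at 29.3% of PBS. The log2 difference was -1.76 (SE 0.13), and -1.71 (SE 0.14) without replicate 4 of PBS. In total RNA of a culture, fewer cells with the transcript and less transcript per cell cannot be told apart.

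At 6 h the signal was 435.1, 351.1, 402.6 and 576.3 with NmU, against 713.3, 717.6, 763.1 and 756.7 with PBS. The groups did not overlap, although the NmU array that stood apart in Egr2 was the highest of its group. NmU averaged 441 ± 96.4 and PBS 738 ± 25.9 (SD, n = 4 each), a log2 difference of -0.76 (SE 0.12). Without that array the NmU mean was 396 and the difference -0.90 (SE 0.11).

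At 12 h the signal was 477.1, 459.1, 476.9 and 382.2 with NmU, against 673.6, 823.3, 748.8 and 789.0 with PBS. The groups again did not overlap. NmU averaged 449 ± 45.2 and PBS 759 ± 64.4 (SD, n = 4 each), and the log2 difference was -0.76 (SE 0.12). NmU was at 59.8% of PBS at 6 h and at 59.2% at 12 h, so the return after 3 h was partial over the times sampled. Without replicate 4 of NmU at 6 h the share at 6 h was 53.7%.

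**Figure D1:**
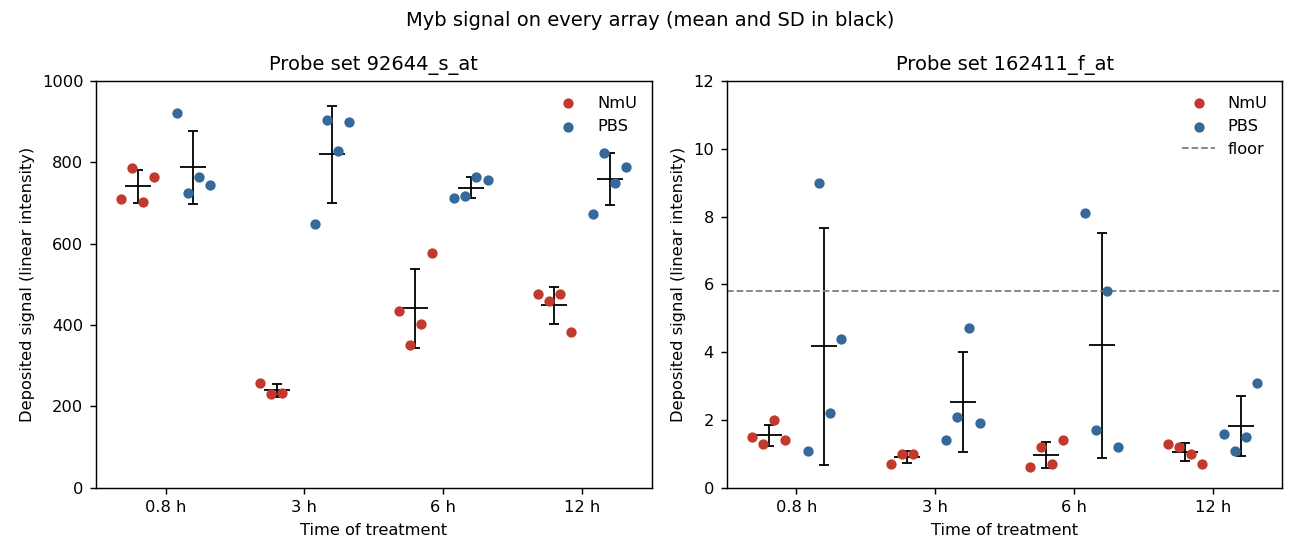
Deposited signal (linear intensity) of both Myb probe sets on every array by time of treatment, NmU in red left of PBS in blue, with group mean and SD in black. The main probe set lies between 229.7 and 258.6 with NmU at 3 h, below every PBS array, while the second probe set stays at 9.0 or lower on all 31 arrays.

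Ordered by mean Myb signal, the groups ran from PBS at 3 h through PBS at 0.8 h, PBS at 12 h, NmU at 0.8 h and PBS at 6 h to NmU at 12 h, NmU at 6 h and NmU at 3 h. The first 5 groups overlapped with their neighbours. The step from them to NmU at 12 h exceeded the spread, since all 20 arrays of PBS or of NmU at 0.8 h lay above all 11 arrays of NmU at later times. NmU at 12 h and at 6 h overlapped, and NmU at 3 h lay below both.

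Within NmU, the Myb signal at 3 h minus that at 0.8 h was -1.62 on the log2 scale (SE 0.13). The value at 6 h minus that at 3 h was 0.85 (SE 0.13), and 0.72 without replicate 4 of NmU at 6 h. The value at 12 h minus that at 6 h was 0.04 (SE 0.12), and 0.18 without replicate 4 of NmU at 6 h. The value at 12 h minus that at 0.8 h was -0.73 (SE 0.12). The 16 PBS arrays lay between 647.3 and 920.5, with a median of 759.9, and successive PBS times differed by between -0.14 and 0.05 on the log2 scale.

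The second Myb probe set, 162411_f_at, carried too little signal to be read against the first. It ranged from 0.6 to 9.0 with a median of 1.4, and 29 of 31 arrays lay at or below the floor of 5.8, the 20th percentile of all values on the arrays. The 2 arrays above the floor were both PBS arrays, replicate 2 at 0.8 h with 9.0 and replicate 1 at 6 h with 8.1. It did not pass the filter on dim probe sets, so that 1 of the 2 Myb probe sets entered the comparison with other probe sets, and agreement between them could not be judged. The suffixes of both names mark probes that may match related transcripts.

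By the size of its decrease, Myb was in position 8 of the 7930 probe sets at 3 h, in position 77 at 6 h, in position 116 at 12 h and in position 3146 at 0.8 h. Of the 7 probe sets with larger decreases at 3 h, 4 had at least 1 array at the floor at 3 h, while Myb had 0. Of these 7, 6 were called at 3 h and 0 at 12 h. Here and below, called means a limma adjusted p under 0.05 (Benjamini-Hochberg over 7930 probe sets). At 3 h 10.2% of all probe sets were called, 4.44% higher and 5.73% lower with NmU, and at 12 h 1.26%, 0.858% higher and 0.404% lower.

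**Figure D2:**
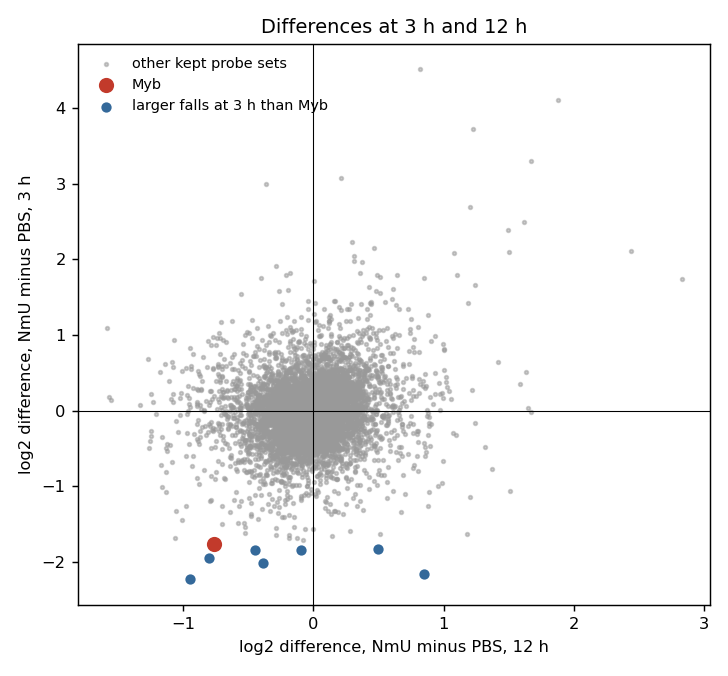
Log2 difference, NmU minus PBS, of each of the 7930 kept probe sets at 12 h (horizontal) and 3 h (vertical). Myb, in red, lies at -0.76 and -1.76, and the 7 probe sets with larger decreases at 3 h, in blue, spread from below -0.76 to above 0 at 12 h.

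The cells carried the transcripts of their labelled type. Of 11 T cell markers on the array, 9 passed the filter and 2, Cd5 and Thy1, did not, being at the floor on 14 and 20 arrays. All 7 Th2 markers on the array passed. The summed signal of the 11 T cell markers was 7725 to 8836 with NmU at 3 h, against 6598 to 7546 with PBS at 3 h, and 1 of the 9 was called at 3 h, higher with NmU. This was Zap70, a kinase of T cell receptor signalling, which averaged 3482 with NmU and 2053 with PBS and so differed by more than the sum did. The receptor chains Cd3e, Cd3g and Cd3d and the coreceptor Cd4 averaged 649, 1211, 1456 and 246 with NmU, against 737, 1392, 1491 and 278 with PBS, and were not called. Of the 7 Th2 markers, 5 were higher and 1 lower at 3 h, when 4.44% of all probe sets were called higher and 5.73% lower. Summed signals over all arrays were 103.1 to 224.7 for 7 B cell markers, 171.1 to 285.4 for 8 erythroid and progenitor markers and 26.9 to 89.7 for 6 mast cell and basophil markers. Of these 3 lists, 5, 4 and 1 markers passed the filter, and none of those was called at any time. With 10.2% of all probe sets called at 3 h and fewer at the other times, this is near the background. The 10 myeloid markers summed to 374.6 to 395.5 with NmU at 6 h, against 284.2 to 333.5 with PBS at 6 h, with Itgam, Lyz2, Adgre1 and Ly6g at the floor on 31, 28, 26 and 7 arrays and the other 6 at the floor on 0. Of these 6, Csf3r and Cd14 had the highest median signals, 113 and 70.9. Of all probe sets, 2.85% were called higher at 6 h and 0.858% at 12 h. Of the 6 myeloid markers measured, 2 were higher at 6 h (1 to 2 when 1 array was left out) and 1 at 12 h (0 to 1). The part of these shifts in the Myb values was not tested.

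Reported regulators of the Myb gene or transcript moved in both directions. Of 20 measured of 27 listed, 3 were higher and 0 lower at 0.8 h, where 0.845% of all probe sets were called, 0.782% higher and 0.0631% lower, and 3 were higher and 4 lower at 3 h. At 6 h 0 were higher and 3 lower, with 4.88% of all called, 2.85% higher and 2.03% lower, and at 12 h 0 were higher and 1 lower. Of all probe sets, 4.44% were called higher and 5.73% lower at 3 h, and 0.858% and 0.404% at 12 h. The median log2 difference of the list at 3 h was 0.04, against -0.03 over all probe sets. When 1 array was left out, the count of higher members at 3 h ran from 1 to 3, lowest without replicate 1 or 3 of NmU at 3 h, and that of lower members at 6 h from 1 to 4, lowest without replicate 2 of NmU at 6 h.

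Rbl1, a pocket protein that holds E2F target genes silent, fell with NmU at 3 h. Its signal was 154.0, 146.7 and 137.0 with NmU, against 282.3, 336.1, 323.7 and 308.2 with PBS. The groups lay far apart, with a log2 difference of -1.10 (SE 0.09, limma adjusted p = 1.69e-09). It was also lower at 6 h (-0.32, adjusted p = 0.0143, but 0.0614 without replicate 2 of NmU) and at 12 h (-0.34, adjusted p = 0.0265). The 12 h call was lost without replicate 2 or 3 of PBS (adjusted p = 0.0717 and 0.0983) and without replicate 1, 2 or 4 of NmU (0.0917, 0.0998 and 0.0619). The effect on Rbl1 at 3 h differed from that at 12 h by -0.76 (SE 0.12, adjusted p = 3.41e-04), where 2.85% of all probe sets were called for such a difference, and 1.35% called below 0.

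Fli1, an ETS factor, had a signal of 115.0, 162.1 and 135.9 with NmU at 3 h, against 356.0, 325.2, 383.5 and 251.1 with PBS. The groups did not overlap, and Fli1 fell by 1.25 on the log2 scale (SE 0.14, adjusted p = 8.07e-07). Its effect at 3 h minus that at 12 h was -0.95 (adjusted p = 0.00599). Wt1, a zinc finger factor, had 42.4, 33.0 and 29.8 with NmU at 3 h, against 64.6, 129.1, 86.6 and 60.2 with PBS. Its log2 difference at 3 h was -1.23 (SE 0.18, adjusted p = 3.06e-05), and it was not called when only the groups compared entered the fit (adjusted p = 0.0727). Wt1 averaged 85.1 ± 31.5 (SD) with PBS at 3 h, against 52.0, 61.0 and 62.1 with PBS at 0.8, 6 and 12 h. With NmU it averaged 35.1 at 3 h and 41.0 at 6 h, so part of its difference at 3 h lay in the high PBS group. Meis1, a homeobox partner of Hox proteins, was dim and had differences of -1.49 at 3 h and -1.29 at 6 h. With the floor at the 40th percentile Meis1 was at -0.11 and -0.02 and not called at either time, and it was named after its values were seen.

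Relb, a subunit of NF-kB, rose with NmU. Its signal at 3 h was 171.1, 180.1 and 201.6 with NmU, against 91.3, 73.3, 98.8 and 88.3 with PBS, a log2 difference of 1.07 (SE 0.15, adjusted p = 2.15e-05). All NmU arrays lay above all PBS arrays at that time. At 0.8 h, when the Myb groups overlapped, Relb was already higher by 0.69 (adjusted p = 0.00857, and 0.0538 without replicate 1 of PBS). Its effect at 3 h minus that at 12 h was 1.03 (adjusted p = 0.00541). Irf1, an interferon regulatory factor, was higher at 0.8 h by 0.70 (SE 0.11, adjusted p = 2.22e-04) and not called later. Egr1, a zinc finger factor of the early response, was higher by 4.57 at 0.8 h (SE 0.45, adjusted p = 1.01e-07). Egr1 was higher by 1.59 at 3 h (adjusted p = 0.033), a call that each NmU array and replicates 2, 3 and 4 of PBS at that time decide, with adjusted p of 0.0545 to 0.116 without 1 of them.

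**Figure D3:**
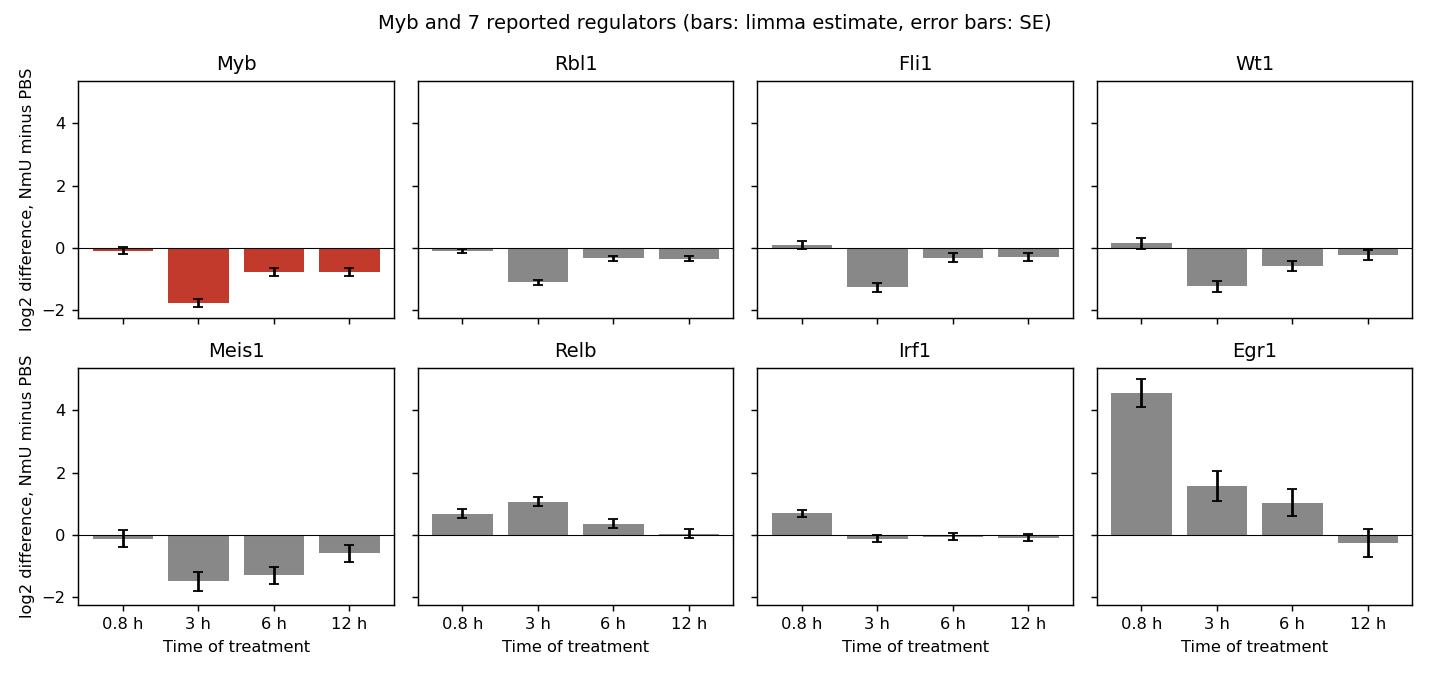
Log2 difference, NmU minus PBS, at the 4 times for Myb and 7 reported regulators, with bars for the limma estimate and error bars for its SE. Rbl1, Fli1 and Wt1 have their lowest bar at 3 h, as Myb does at -1.76, while Egr1 has its highest bar, 4.57, at 0.8 h.

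Of the Myb family and the complex of B-Myb, 4 of 8 listed genes were measured and 2 were lower at 3 h, with 0 called at the other times. The median log2 difference of these 4 at 3 h was -0.40, against -0.03 over all probe sets, of which 5.73% were called lower. Mybl2 had 284.3, 187.0 and 203.4 with NmU at 3 h, against 268.5, 289.5, 288.3 and 410.6 with PBS. The groups overlapped, and the highest value was that of the PBS array that stood apart. Its difference of -0.49 (adjusted p = 0.0242) was not called without that array (0.084) or without replicate 2 or 3 of NmU (0.162 and 0.118), and a second Mybl2 probe set, at -0.08, was not called. Foxm1, which activates genes of mitosis, was at -0.64 (adjusted p = 0.013, but 0.0747 and 0.0617 without replicate 1 or 2 of NmU), and its second probe set was lower by -1.30 (adjusted p = 0.00999). Lin9, a MuvB protein, and Rbbp4, a histone-binding protein, were at -0.32 and 0.10 and not called. Mybl1 is on the array but did not pass the filter.

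Of 19 measured coactivators and binding partners of the Myb protein, of 22 listed, 0 were called at 0.8, 6 and 12 h and 1 was called at 3 h, higher with NmU. Over all probe sets 4.44% were called higher and 5.73% lower at 3 h, so this count is close to the background. The median at 3 h was 0.04, against -0.03 over all probe sets. The called gene was Fbxw7, the substrate-recognising part of a ubiquitin ligase that acts on c-Myb, at 0.65 (adjusted p = 0.0219). This call was lost without replicate 1 or 3 of PBS at 3 h (0.0783 and 0.0512) and without replicate 1 or 3 of NmU (0.137 and 0.0853). Crebbp, which encodes CBP, was at 0.18 (adjusted p = 0.769), and Kmt2a, a histone methyltransferase of the menin complex that Myb binds, at -0.50 (adjusted p = 0.0611), both not called.

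Reported targets of Myb in blood cells were called in both directions. Of 22 measured of 32 listed, 2 were higher and 1 lower at 3 h, and the median of 0.11 lay above that of all probe sets, -0.03. With 4.44% of all probe sets called higher and 5.73% lower at 3 h, these counts are close to the background. The 2 higher were Gata3 and Gfi1, which also stand in the list of T cell transcription factors described below. Gata3 is also among the reported regulators, so the counts of these lists are not separate results. At 6 h 2 were higher and 2 lower, at 12 h 1 was higher and 1 lower, and at 0.8 h 0 were higher and 1 lower. The shares higher and lower over all probe sets were 2.85% and 2.03% at 6 h, 0.858% and 0.404% at 12 h, and 0.782% and 0.0631% at 0.8 h. When 1 array was left out, the higher members ran from 1 to 3 at 3 h, moved by each of the 3 NmU arrays of that time, and the higher and lower members at 6 h from 1 to 4 and from 1 to 3. Cxcr4, the receptor of the chemokine Cxcl12, had 33.3, 39.8 and 39.7 with NmU at 3 h, against 67.7, 138.2, 78.7 and 86.4 with PBS. At 3 h the groups did not overlap, and the log2 difference was -1.25 (SE 0.26, adjusted p = 0.00199). At 6 h they overlapped, at 21.4 to 75.2 with NmU against 73.7 to 109.3 with PBS. The log2 difference at 6 h was -1.21 (adjusted p = 0.00291, but 0.115 with only the groups compared in the fit). At 12 h it was -0.97 (adjusted p = 0.0412), a call lost without any 1 of 15 of the 31 arrays, with adjusted p of up to 0.118.

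Myc, a growth-promoting proto-oncogene, was higher at 12 h by 0.84 (SE 0.16, adjusted p = 0.00315). Its signal there was 378.0, 430.0, 436.0 and 382.1 with NmU, against 209.9, 242.4, 249.2 and 207.5 with PBS, with no overlap. Myc averaged 357 with PBS at 0.8 h and 227 at 12 h, and 461 and 407 with NmU. At 12 h both treatments thus lay below their own level at 0.8 h. The change with time in PBS was not called (limma moderated F, unadjusted p = 1.95e-04, adjusted p = 0.258). Bcl2, a survival gene often given as a Myb target, was at -0.28 at 3 h (adjusted p = 0.395), not called. Mpo, myeloperoxidase, was higher at 6 h by 0.86 (adjusted p = 0.00484), and its second probe set was at -0.18 and not called. The survival gene Bcl2l1 and the DNA topoisomerase Top2a were called at 6 h, higher by 0.54 and lower at -0.46. Each of these calls was lost without any 1 of 5 arrays, with adjusted p of up to 0.105 for Bcl2l1 and 0.0692 for Top2a. Bcl2 and Bcl2l1 were named after their values were seen.

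Among 15 measured transcription factors of T cell development and identity, of 26 listed, 3 were higher and 0 lower at 3 h, with a median of 0.10 against -0.03 over all probe sets. These were Id2, an inhibitor of E proteins (0.57, adjusted p = 0.00748), Gfi1, a zinc finger repressor (0.45, adjusted p = 0.015, and 0.0599 without replicate 2 of NmU), and Gata3, the master factor of Th2 cells (0.43, adjusted p = 0.0112). With only the groups compared in the fit, the adjusted p of these was 0.189, 0.168 and 0.144. With a replicate block inside each time, that of Id2 was 0.0551 and that of Gfi1 0.0903. Gata3 was not called without replicate 1 or 3 of NmU at 3 h (0.078 and 0.0573). It averaged 1900 with PBS at 3 h, against 2290, 2135 and 2253 with PBS at 0.8, 6 and 12 h. With NmU at 3 h it averaged 2566, so part of its difference at 3 h lay in the low PBS group. At 6 and 12 h 0 of the 15 were called. Of all probe sets, 4.44% were called higher and 5.73% lower at 3 h, so 0 lower of 15 is near the background. In either direction 0.845% were called at 0.8 h, 4.88% at 6 h and 1.26% at 12 h. At 0.8 h 1 was lower, Gfi1 at -0.46 (adjusted p = 0.0401), a call lost without any 1 of 15 arrays, with adjusted p of up to 0.217.

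Genes of cell division that B-Myb is known to drive were lower with NmU wherever they were called. Of 15 measured of 18 listed, 0 were higher and 6 lower at 3 h, between 4 and 6 when 1 array was left out, with a median of -0.35 against -0.03 over all probe sets. At 6 h 0 were higher and 4 lower, and at 0.8 and 12 h 0 were called. Of all probe sets, 5.73% were called lower at 3 h and 2.03% at 6 h. The count at 6 h ran from 1 to 6 when 1 array was left out, and replicates 3 and 4 of PBS and 1 and 3 of NmU at 6 h moved it by over 1.5 times. The kinases of mitosis Aurkb, Aurka and Plk1 had log2 differences of -0.82, -0.75 and -0.67 at 3 h (adjusted p = 1.53e-04, 5.5e-05 and 1.37e-04). With only the groups compared in the fit, the adjusted p of these was 0.104, 0.0937 and 0.0747. For Aurka, the effect at 3 h minus that at 12 h was -0.65 (adjusted p = 0.0175, but 0.0552 and 0.0776 without replicate 2 or 3 of NmU at 3 h).

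Other proto-oncogenes, listed as transcription factors although the kinase Pim1 is among them, were higher with NmU in most calls. Pim1 was not called at any time. Of 15 measured of 20 listed, 3 were higher and 0 lower at 0.8 h, 4 were higher and 1 lower at 3 h, 2 were higher at 6 h and 1 at 12 h, with 0 lower at both. Of all probe sets, 0.782% were called higher at 0.8 h, 4.44% at 3 h, 2.85% at 6 h and 0.858% at 12 h. The median at 3 h was 0.34, against -0.03 over all probe sets. The higher members ran from 2 to 6 at 3 h when 1 array was left out, moved by replicate 3 of PBS and replicates 1 and 3 of NmU of that time, and from 1 to 5 at 6 h. The lower gene at 3 h was Fli1, and the higher gene at 12 h was Myc. Fos and Junb, subunits of AP-1, were higher at 0.8 h by 4.15 and 1.14 (adjusted p = 6.03e-07 and 1.71e-07). Some genes stand in more than 1 list. Over all 7 lists together, with each gene counted once, 90 genes were measured. Of these, 6 were higher and 1 lower at 0.8 h, 10 and 13 at 3 h, 4 and 8 at 6 h, and 1 and 2 at 12 h. The shares of all probe sets called lower at these 4 times were 0.0631%, 5.73%, 2.03% and 0.404%, and those called higher are given above. Of the 90, 0 were called for a change with time in PBS by limma's moderated F test. Of all probe sets, 0.0126% were called in that test and 8.74% had an unadjusted p under 0.05.

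**Figure D4:**
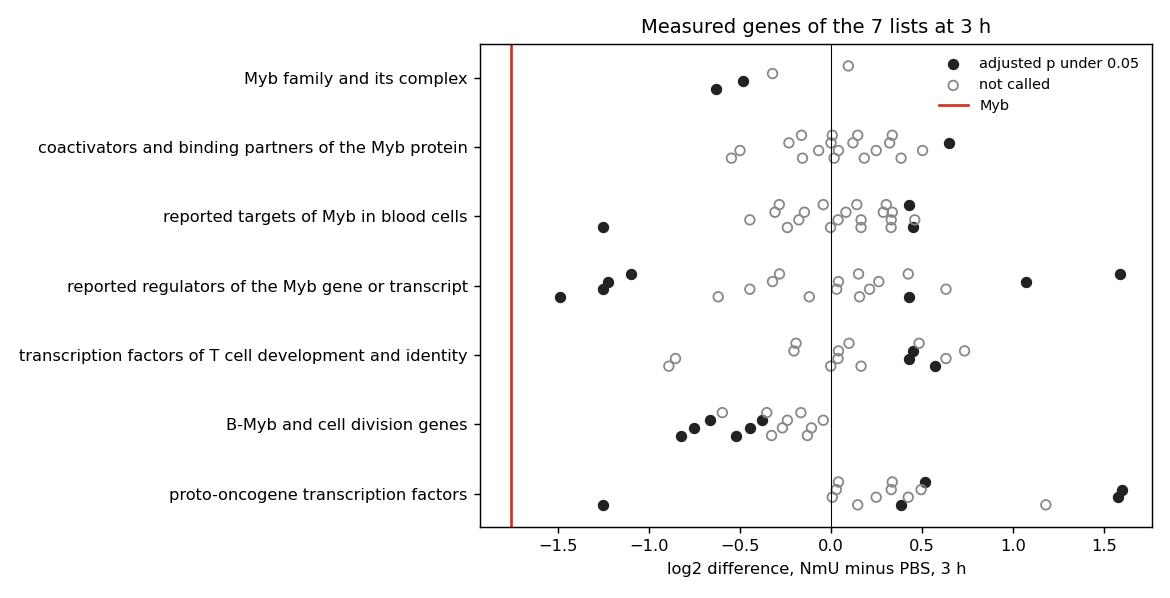
Log2 difference, NmU minus PBS, at 3 h for each measured gene of the 7 lists, filled where called and open where not, with the value of Myb, -1.76, as a red line. Of the 15 cell division genes, 6 are called and all of these are lower, and the other lists have values on both sides of 0.

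Of the 3 nearest genes on each side of Myb on chromosome 10 that were on the array, 6 in all, 0 were called at any of the 4 times. With 10.2% of all probe sets called at 3 h and fewer at the other times, a count of 0 of 6 is near the background. Ahi1, which encodes a protein of the primary cilium, lies at 20952232 to 21080429 (GRCm38.p6) and was at -0.29 at 3 h (SE 0.16, adjusted p = 0.296). Hbs1l, a factor of ribosome rescue, lies at 21295979 to 21368889 and was at 0.09 (SE 0.11, adjusted p = 0.684).

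Genes were ranked by Pearson's r with Myb over the 8 group means of log2 signal, among 1764 genes whose means varied at least 1/3 as much as those of Myb. Of these, 82 had an r of at least 0.9 and 16 of at least 0.95. As the means share arrays and a common NmU response, r is a description. The 8 most alike were Aurkb (r = 0.988), Mef2c (0.986), Cd47 (0.982), Lrch4 (0.980), Rell1 (0.975), Fcgbp (0.974), Tspan32 (0.974) and Pim2 (0.972). They were chosen for falling with Myb, so their calls add nothing to the likeness. All 8 were lower at 3 h, by between -0.70 and -2.23 on the log2 scale, and Fcgbp was at 0.085 when its probe sets were averaged. At 12 h none of the 8 was called, with limma adjusted p from 0.112 for Lrch4 to 0.577 for Pim2.

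Mef2c, a MADS box transcription factor, had 3.9, 7.4 and 9.9 with NmU at 3 h, against 39.3, 21.2, 39.6 and 46.6 with PBS. With 1 of the NmU arrays at the floor, its difference was -2.23 (SE 0.35). A second Mef2c probe set was at -1.15, and with the floor at the 40th percentile the first was at -0.80 (adjusted p = 0.128). Cd47, a surface protein that signals to phagocytes, had 818.2, 775.3 and 802.0 with NmU at 3 h, against 1404.0, 1497.4, 1391.0 and 1449.1 with PBS. Tspan32, a tetraspanin of blood cells, had 346.5, 375.9 and 392.0 with NmU at 3 h, against 662.0, 662.8, 650.2 and 708.3 with PBS. In both genes the groups were far apart, and the differences were -0.85 for each.

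The 4 genes most opposite to Myb were Noct (r = -0.983), a deadenylase-related protein, Ccl1 (-0.982), a chemokine of Th2 cells, Itgav (-0.979), an integrin chain, and Nfatc1 (-0.975), a factor downstream of calcineurin. At 3 h their log2 differences were 0.54, 3.72, 0.55 and 1.08. Other probe sets of these genes differed in size: Ccl1 had a second at 1.96, Noct others at 0.30 and 0.82, and Itgav others at 0.20 and 1.19. The 3 h calls for Noct and Itgav were lost when probe sets were averaged (adjusted p = 0.0866 and 0.0598). The call for Noct at 3 h was lost without replicate 1 of NmU (adjusted p = 0.0564), and those for Fcgbp without replicate 1 or 2 (0.0948 and 0.0508) and for Pim2 without replicate 2 (0.132).

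**Figure D5:**
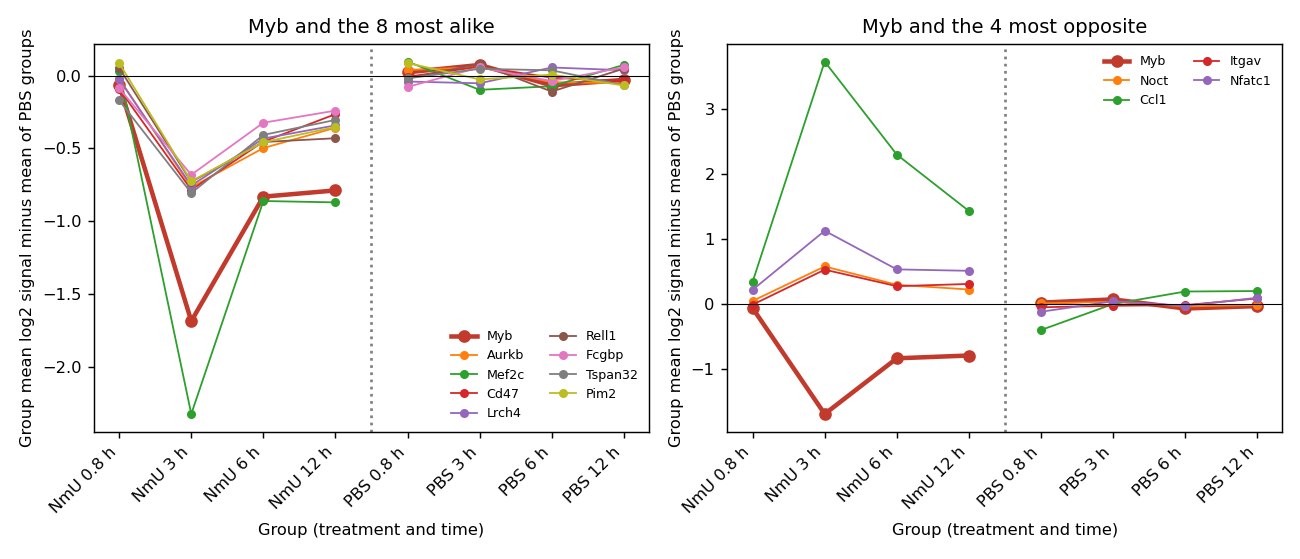
Group mean log2 signal, less the mean of the 4 PBS groups, of Myb with the 8 most alike genes (left) and the 4 most opposite genes (right), NmU groups left of PBS groups. All 8 alike genes are lowest at NmU 3 h. None has come back to 0 at NmU 12 h, but none of the 8 was called there. Ccl1 is 3.72 above its PBS group at 3 h.

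The ranking by likeness depended on its measure. Of the 8 genes most alike, 4 stayed among the first 8 by Pearson's r over the 31 arrays, 2 by Spearman's rho over the 8 means, and 1 by the root mean square difference of the 4 log2 differences.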

How the data were processed

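The authors deposited linear, 1-colour intensities per probe set, as the values themselves show. No source used here names the scanner, the probe summary or the scaling. Trimmed by 2% at both ends, each array averaged 150.09 to 150.11, so a shared mean was already set and the intensities were used as deposited. A difference is therefore relative to the rest of the array. The number of arrays limits the precision.

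A floor of 5.8 (20th percentile over all arrays) was set before log2 was taken. The 66 control probe sets were left out, and 7930 of 12422 others were kept, those with a group mean above the 40th percentile, 20.2. All 31 arrays entered a linear model with 8 group means (limma 3.58.1, R 4.3.3, moderated t, 23 residual and 2.72 prior degrees of freedom). P-values are two-sided and were adjusted by Benjamini-Hochberg over the 7930 probe sets, with a threshold of 0.05. A gene was read from its brightest probe set. Errors are SD of signals and SE of log2 differences. On simulated data for the 3 h comparison of 7930 probe sets, 26%, 70%, 96% and 100% of probe sets changed by 0.5, 1, 2 and 3 on the log2 scale were recovered, with 6 false calls among 152.

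Groups and replicate numbers came from the sample titles. The probe annotation pairs 10833 probe sets with 1 symbol, 396 with several and 1193 with none, and 10817 of the 10833 matched the RefSeq table with 0 symbols changed.

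Myb, the gene lists and the tests were chosen with earlier results of these data known. Genes named were Myb, its family, the 3 nearest genes on each side, up to 6 members of each other list with the lowest p, every measured marker, the 8 most alike and 4 most opposite genes, and the 6 largest decreases and 4 largest increases at 3 h. The text gives values for part of them, and exceptions are stated. Alternatives were other scalings, floors, filters, fits, probe set rules and measures of likeness, and the omission of each array.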

Additional observations from a re-analysis of the deposited data

Results flagged for a closer look

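Single arrays were flagged as apart from the others of their group in 18 of 301 pairs of gene and group, or 5.98%, where chance gives about 5%. Some flagged gaps were small, such as that of Wt1 with PBS at 6 h, 59.7 against 61.3 to 61.6. On replicate 4 of NmU at 6 h, Egr1 had a signal of 1586.7 (147.6 to 170.2 on the other arrays), Egr2 1705.4 (251.9 to 304.4) and Fos 336.7 (28.5 to 33.6). Myb, at 576.3 there against 351.1 to 435.1, did not meet the same criterion. On replicate 4 of PBS at 3 h, Mybl2 had 410.6 (268.5 to 289.5), Myc 379.9 (202.6 to 208.9) and Top2a 396.8 (280.4 to 295.4). On replicate 1 of PBS at 0.8 h, Top2a had 470 (349.3 to 360.2), Plk1 465.6 (369.2 to 382.9) and Meis1 36 (12.6 to 16.6).

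On replicate 2 of PBS at 0.8 h, Ahi1 had 76 (58.3 to 61.3) and Aurkb 274.3 (305.7 to 309.2). On replicate 4 of NmU at 12 h, Fbxw7 had 54.6 (35.3 to 35.8) and Rell1 79.3 (60 to 61.2). Of the rest, Id2 had 3064.3 on replicate 3 of NmU at 12 h (2530.5 to 2603.5) and 2173 on replicate 3 of PBS at 0.8 h (2045.8 to 2066.7). Aurka had 220.9 on replicate 4 of NmU at 0.8 h (261 to 268.8), Hbs1l 215.4 on replicate 2 of PBS at 3 h (193.8 to 196.6) and Wt1 59.7 on replicate 2 of PBS at 6 h (61.3 to 61.6).

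For 8 genes with values in the text above, cell type markers aside, the effect of NmU at 3 h differed from that at 12 h (limma contrast, adjusted p under 0.05). Over all probe sets 2.85% were called for such a difference. The effect at 3 h minus that at 12 h was -0.76 for Rbl1, -0.95 for Fli1, 1.03 for Relb, -1.01 for Wt1, -0.65 for Aurka, -0.62 for Cd47, -0.61 for Tspan32 and 2.49 for Ccl1. Cd47, Tspan32 and Ccl1 were chosen because their group means follow or mirror those of Myb, so their differences are largely fixed by that choice and are a description. The call was lost when 1 array was left out for Wt1 and Aurka, each without replicate 2 or 3 of NmU at 3 h (adjusted p = 0.0557 and 0.0788, and 0.0552 and 0.0776). For Cd47 it was lost without the same arrays and without replicate 1 or 3 of PBS at 12 h (adjusted p between 0.0522 and 0.058). Rbl1, Fli1, Relb, Wt1 and Aurka were named for a low p in an NmU contrast on the same arrays. Bcl6 and Fosl1, of the proto-oncogene list, were also called, at 1.79 and 1.10 (adjusted p = 0.0489 and 0.0451). Their calls were lost without any 1 of 25 and of 22 arrays.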

How the results depend on the processing

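The log2 differences of Myb kept their direction at 3, 6 and 12 h under every alternative tried. When each array was left out in turn they ran from -0.12 to -0.01 at 0.8 h, from -1.87 to -1.71 at 3 h, from -0.90 to -0.66 at 6 h and from -0.82 to -0.68 at 12 h. With a replicate block inside each time, Myb was at -1.71 at 3 h, and 19 genes of the 7 lists were called there, against 23 without the block. The block also brought a call for the neighbour Ahi1 at 3 h, at -0.44 (adjusted p = 0.0349). As NmU at 3 h has no replicate 4, the block takes replicate 4 of PBS out of the 3 h comparison. The 3 h differences with the block are thus those without that array, and Mybl2 was at -0.35 either way. The arrays were not treated as paired, since the deviations of same-numbered arrays correlated at -0.22 to 0.20 and above 0.1 in 5 of 15 pairs. An NmU array was closest to the PBS array of its own number in 7 of 15 cases, and pairing beyond this was not tested. With only the 2 groups compared in the fit, and so fewer samples, 8 of the 90 genes were called at 3 h and 4 at 6 h, against 23 and 12. After every array was set to the same median, 1 was called at 12 h, against 3, and 4 differed between 3 h and 12 h, against 7. The cause was not tested. With 1 array left out, the counts ran from 5 to 8 at 0.8 h (main 7), from 15 to 24 at 3 h, from 6 to 16 at 6 h, from 1 to 4 at 12 h, from 3 to 8 for the difference between 3 h and 12 h, and from 0 to 1 for time in PBS. At 3 h the lowest count was without replicate 1 of NmU, and at 6 h the highest was without replicate 4 of NmU and the lowest without replicate 3 of PBS. Of the 8 genes most alike, 5 remained after quantile normalisation, 4 by r over the 31 arrays, 2 by Spearman's rho and 1 by root mean square difference, and between 5 and 8 with 1 array left out. Averaging the probe sets of Fcgbp turned its difference at 3 h to 0.085 (adjusted p = 0.934), since its second probe set was at 0.91 and not called (adjusted p = 0.542). Among single named genes, 56 calls were lost and 12 gained over the other alternatives, and 107 lost and 22 gained over omitted arrays. Dim transcripts such as Mef2c and Meis1 are limited by the floor.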
